A study of Homo sapiens with 6 samples.

Results

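Long noncoding RNAs (lncRNAs) are transcripts that are not translated, and 8 that are widely studied in cancer were chosen by name: MALAT1, NEAT1, PVT1, CCAT1, CYTOR, MIR22HG, H19 and NORAD. Of these, 7 were found among the 60643 genes of the expression table, each in a single row, and CCAT1 was not analysed here. All 7 passed the filter of at least 1 FPKM (fragments per kilobase of transcript, scaled to library size) in at least 3 libraries, as did 14475 genes in all, 1110 of them annotated as lncRNA genes. The cells were HCT116, an established human colorectal cancer line, carrying a short hairpin RNA against the actin-capping protein gene CAPG that doxycycline switches on. The +Dox group (3 libraries, genotype CAPG Knockdown) received 100 ng/ul doxycycline, the unit as labelled, for 3 days. The -Dox group (3 libraries, treatment Untreated) is labelled WT although its titles carry the same shCAPG construct. The labels do not say whether the line is a single clone, and cells given doxycycline without the hairpin were not analysed here, so the drug and the hairpin cannot be told apart. Nothing says that the replicates were separate cultures, so p-values reflect how far these libraries vary, and that variation may be technical.

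These RNAs act in several ways. NEAT1 is the scaffold of paraspeckles, nuclear bodies in which it gathers RNA-binding proteins, and MALAT1 is retained in nuclear speckles, where splicing factors are stored. NORAD is mostly cytoplasmic and binds Pumilio proteins, which repress messenger RNAs and otherwise act on genes needed for chromosome stability. PVT1 lies beside the oncogene MYC, CYTOR is a cytoplasmic and nuclear lncRNA often high in colorectal tumors, and MIR22HG and H19 are the host transcripts of the microRNAs miR-22 and miR-675.

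CAPG itself was at 8.18, 8.03 and 9.97 FPKM in +Dox libraries, against 61.1, 56.9 and 53.7 FPKM in -Dox libraries, which fits the labels. Depth, estimated from the lowest values of single-exon genes, lay between 13400000 and 18800000 fragments per library. Summed FPKM was 586911 in +Dox replicate 3 and between 521832 and 536037 in the other libraries. Of 8 epithelial markers, 6 were expressed (CDX2, KRT8, KRT18, KRT19, EPCAM and CDH1) while VIL1 and CEACAM5 stayed below 1 FPKM. None of the 5 leukocyte and 4 endothelial markers reached 1 FPKM in any library, and among 5 fibroblast markers COL1A1 did (7.49 to 9.75 FPKM in +Dox and 7.88 to 10.9 FPKM in -Dox libraries), with COL1A2 and DCN listed at 0 throughout.

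The lncRNAs did not change together. NEAT1 and NORAD fell and MIR22HG rose in +Dox cells, while MALAT1, PVT1, CYTOR and H19 were not called. These 3 calls among 7 tested members stand beside 8.46% of all tested genes called by limma at an adjusted p under 0.05 (4.77% lower, 3.69% higher). The groups did not overlap in the same 3 members, and in 34.5% of all tested genes. The median log2 change over the 7 members was -0.20 and over all tested genes -0.0026. Together the 7 members held 0.0462%, 0.0446% and 0.0442% of the summed FPKM in +Dox libraries and 0.0589%, 0.0585% and 0.0616% in -Dox libraries. In bulk RNA, fewer cells expressing a transcript and less of it per cell cannot be told apart.

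**Figure D1:**
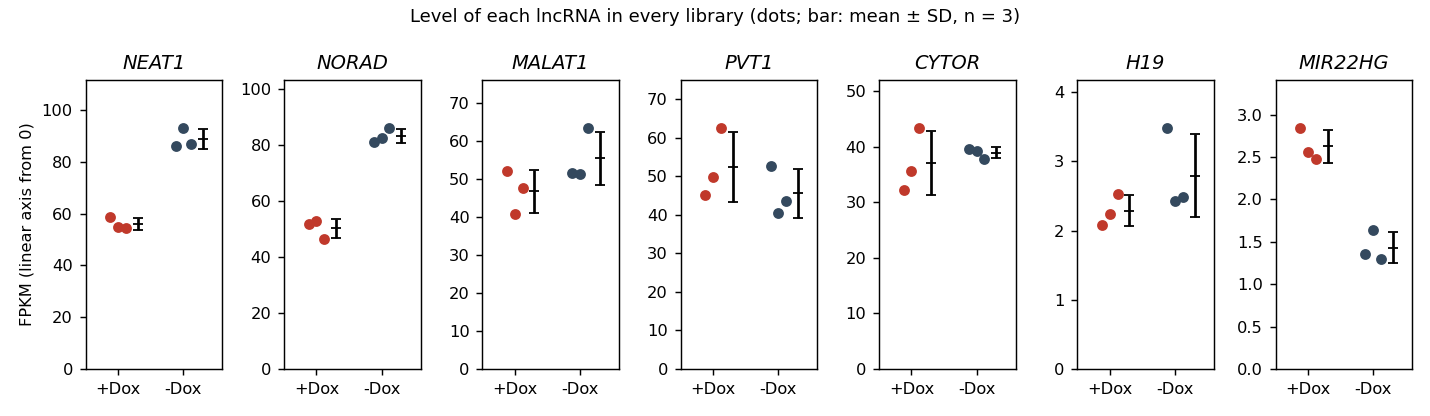
FPKM of each lncRNA in every library on linear axes from 0, with +Dox left of -Dox, dots for libraries and bars for mean ± SD (n = 3 each). NEAT1 and NORAD lie between 46.4 and 58.5 FPKM in all +Dox libraries and above 81 FPKM in all -Dox libraries, and MIR22HG is the only panel in which every +Dox dot lies above every -Dox dot.

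NEAT1 (ENSG00000245532, chromosome 11, 65422774 to 65445540, plus strand, GRCh38) was the most abundant member, at the 92.3 percentile of mean FPKM among tested genes and the 12th highest lncRNA gene. It has 8 annotated transcripts, the longest of 22743 bases in a single exon. NEAT1 was at 58.5, 54.8 and 54.6 FPKM in +Dox libraries and at 86.0, 93.0 and 86.9 FPKM in -Dox libraries. All 3 +Dox values lay below all -Dox values, by far more than the spread within either group (56.0 ± 2.19 and 88.7 ± 3.81 FPKM, SD, n = 3 each). NEAT1 thus fell to 63.1% of its -Dox level (log2 change -0.65, SE 0.08, limma adjusted p = 0.00264). Leaving out any 1 of the 6 libraries kept the call (adjusted p 0.00608 to 0.0206). The deposited values are 1 number per gene, so the short, polyadenylated transcripts and the long scaffold form of NEAT1 could not be told apart.

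MALAT1 (ENSG00000251562, chromosome 11, 65497688 to 65506516, plus strand) lies beyond NEAT1 on the same chromosome and has 17 annotated transcripts. It was at 52.1, 40.8 and 47.7 FPKM in +Dox libraries and at 51.7, 51.3 and 63.5 FPKM in -Dox libraries. The groups overlapped, since +Dox replicate 1 was above both -Dox replicates 1 and 2. Its means were 46.8 ± 5.70 FPKM in +Dox and 55.5 ± 6.94 FPKM in -Dox libraries (SD, n = 3 each), and limma did not call it (log2 change -0.24, SE 0.12, adjusted p = 0.21). The 95% interval of the fitted change, 0.707-fold to 1.01-fold, includes both no change and a fall to 0.707 of its level. The ratio of NEAT1 to MALAT1 within a library was 1.12, 1.34 and 1.15 in +Dox libraries and 1.66, 1.81 and 1.37 in -Dox libraries. These ratios did not overlap, although +Dox replicate 2 and -Dox replicate 3 were close, and the exact two-sided permutation p was 0.1, the smallest that 3 against 3 libraries allow (1 of 6 ratios compared).

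NEAT1 and MALAT1 share an unusual 3′ end. The long NEAT1 form and MALAT1 are cut by RNase P just before a small RNA that folds like a tRNA, and the new end is protected by a triple helix of U-rich and A-rich stretches in place of a poly(A) tail. Both small RNA genes are annotated in the same RNA family. The last 60 bases before each of them (GENCODE 29, GRCh38, plus strand) are shown because this end is what the 2 RNAs have in common, with the shared A-rich end in capitals.
NEAT1, chr11:65445481-65445540: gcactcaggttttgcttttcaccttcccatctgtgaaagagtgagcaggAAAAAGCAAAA
MALAT1, chr11:65506057-65506116: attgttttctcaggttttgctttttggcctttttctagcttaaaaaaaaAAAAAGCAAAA
Both stretches end in the same 11 letters. The small RNA genes that begin at the next base, of 58 bases after NEAT1 and of 57 bases after MALAT1, were listed at 0 in all 6 libraries. That was also true of the microRNA genes MIR612 within NEAT1, MIR22 within MIR22HG and MIR675 within H19, so these libraries hold no measurement of the small RNAs.

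NORAD (ENSG00000260032, chromosome 20, 36045618 to 36051018, minus strand) had the largest fall of the members. GENCODE 29 annotates NORAD as 1 transcript of 5339 bases without introns, slightly shorter than this locus, which comes with the deposited values. NORAD was at 51.6, 52.6 and 46.4 FPKM in +Dox libraries and at 81.1, 82.5 and 86.0 FPKM in -Dox libraries. The groups were far apart relative to their spread (50.2 ± 3.33 and 83.2 ± 2.56 FPKM, SD, n = 3 each). NORAD fell to 60.4% of its -Dox level (log2 change -0.72, SE 0.08, limma adjusted p = 0.00228), and leaving out any 1 library kept the call (adjusted p 0.00418 to 0.0165). At the estimated depth these values correspond to about 4600 to 5300 fragments per +Dox library and 6200 to 8300 per -Dox library. Across the 6 libraries NORAD and NEAT1 stayed near each other, with a NEAT1 to NORAD ratio of 1.13, 1.04 and 1.18 in +Dox libraries and 1.06, 1.13 and 1.01 in -Dox libraries (exact permutation p = 0.4).

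Pumilio proteins recognise an eight-letter RNA element, and NORAD is known for carrying many copies of it. A search of the NORAD transcript for TGTANATA on its own strand found 15 matches, 10 of them TGTATATA, 4 TGTAAATA and 1 TGTACATA. Among 12561 annotated transcripts of 4000 to 7000 bases, 40.5% had at least 1 match and 3 had at least 15, namely NORAD and its relatives HCG11 and OVCH1-AS1 with 16 each. Of the other members, the longest transcript of NEAT1 held 6 matches in 22743 bases, and the longest transcripts of MALAT1, PVT1, CYTOR, MIR22HG and H19 held 0. In 3 places pairs of elements stood 9 bases apart, start to start, with a single base between them. These pairs are shown because they are where the elements are densest (GENCODE 29 transcript, DNA letters, minus strand of GRCh38, elements in capitals).
NORAD elements 4 and 5, chr20:36049497-36049525: tatctgTGTATATAgTGTACATAaaggac
NORAD elements 9 and 10, chr20:36048300-36048328: ctatacTGTATATAtTGTATATAtaacgg
NORAD elements 12 and 13, chr20:36047664-36047692: gtgctgTGTATATAgTGTATATAagcgga
Another 3 elements had the same 6 letters in front of them.
NORAD element 2: ctactgTGTATATAgttgac
NORAD element 11: ctactgTGTATATAgcggac
NORAD element 14: ctactgTGTATATAatggaa
These letters describe the transcript that fell, and binding of Pumilio proteins was not measured.

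**Figure D2:**
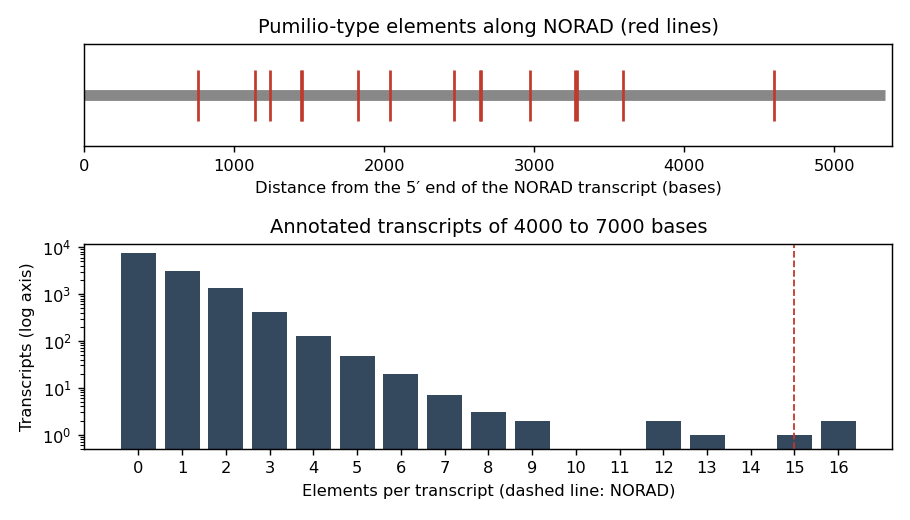
Top, the positions of the 15 TGTANATA elements (red lines) in bases from the 5′ end of the 5339-base NORAD transcript, in which 3 pairs stand 9 bases apart. Bottom, the number of annotated transcripts of 4000 to 7000 bases (log axis) by their count of elements, in which most transcripts have 0 or 1 and NORAD (dashed line) is at 15.

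NORAD has relatives elsewhere in the genome that could exchange reads with it. A comparison of its transcript with all annotated transcripts found 7 other genes with an alignment of at least 300 bases at 90% identity or more, among them OVCH1-AS1 (95.9% over 4614 bases) and HCG11 (90.5% over 4661 bases). The FPKM of these 7 genes summed to 0.679, 0.562 and 0.435 in +Dox libraries and to 0.817, 0.868 and 1.09 in -Dox libraries. The relatives were thus low in both groups beside NORAD, and their sum was lower in +Dox libraries too.

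MIR22HG (ENSG00000186594, chromosome 17, 1711493 to 1717174, minus strand) was the only member that rose. It was at 2.84, 2.56 and 2.47 FPKM in +Dox libraries and at 1.36, 1.64 and 1.29 FPKM in -Dox libraries. The groups did not overlap, and the means were 2.63 ± 0.193 and 1.43 ± 0.184 FPKM (SD, n = 3 each), a ratio of 1.84. On the log2(FPKM + 1) scale, which understates changes at such low levels, the change was 0.58 (SE 0.12, limma adjusted p = 0.0223), and with a pseudocount of 0.1 it was 0.84. Leaving out +Dox replicate 3 kept the call (adjusted p = 0.0375), and leaving out any of the other 5 libraries ended it (up to 0.0688), while the change stayed between 0.54 and 0.64. Testing without the filter on low values (0.072) or with a replicate block, a term for same-numbered libraries (0.0729), also ended the call. At the 13.1 percentile of tested genes, MIR22HG cannot be called abundant in these cells. The locus of MIR22HG given here overlaps the start of the oppositely oriented gene WDR81 by 652 bases, head to head. The RefSeq promoter of MIR22HG, shown further below, ends at 1716460, short of the WDR81 start at 1716523, so the overlap depends on the annotation. The labels do not say whether reads were counted by strand, so reads of the overlap cannot be assigned. WDR81 was at 2.62, 3.74 and 3.98 FPKM in +Dox libraries and at 4.54, 3.41 and 3.58 FPKM in -Dox libraries and was not called (log2 change -0.13, 95% interval -0.47 to 0.20, limma adjusted p = 0.61).

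The microRNAs hosted by MIR22HG and H19 are shown with the seed, bases 2 to 8 that pair with targets, in capitals (RefSeq, GRCh38.p14). They are the small products for which the 2 host transcripts are best known.
hsa-miR-22-3p, chr17:1713914-1713935: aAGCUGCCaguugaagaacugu
hsa-miR-22-5p, chr17:1713952-1713973: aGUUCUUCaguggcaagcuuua
hsa-miR-675-5p, chr11:1996800-1996822: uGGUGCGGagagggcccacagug
hsa-miR-675-3p, chr11:1996768-1996787: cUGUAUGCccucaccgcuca
The 4 seeds differ from each other.

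H19 (ENSG00000130600, chromosome 11, 1995176 to 2001470, minus strand), an imprinted lncRNA beside the growth factor gene IGF2, was low as well, at the 17.2 percentile. H19 was at 2.09, 2.24 and 2.53 FPKM in +Dox libraries and at 3.48, 2.42 and 2.48 FPKM in -Dox libraries. The groups overlapped, -Dox replicate 1 stood above the other 5 libraries, and limma did not call the difference (log2 change -0.20, SE 0.14, adjusted p = 0.377, 95% interval 0.704-fold to 1.08-fold). Without -Dox replicate 1 the log2 change was -0.07. These H19 changes and the interval are of FPKM + 1, which understates changes at such low levels. With all libraries and a pseudocount of 0.1, the log2 change was -0.265 (SE 0.182). IGF2 was at 4.91, 4.92 and 4.60 FPKM in +Dox libraries and at 5.88, 4.99 and 4.24 FPKM in -Dox libraries (adjusted p = 0.84).

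PVT1 (ENSG00000249859, chromosome 8, 127794526 to 128187101, plus strand), with 25 annotated transcripts, was at 45.1, 49.7 and 62.5 FPKM in +Dox libraries and at 52.6, 40.5 and 43.4 FPKM in -Dox libraries. The groups overlapped, the highest value was that of +Dox replicate 3, and PVT1 was not called (log2 change 0.20, SE 0.13, adjusted p = 0.379, 95% interval 0.929-fold to 1.41-fold). Without +Dox replicate 3 its log2 change was 0.06. MYC, 51.6 kb away and the nearest expressed protein-coding gene on that side, was at 58.8, 57.1 and 64.3 FPKM in +Dox libraries and at 99.6, 94.5 and 91.8 FPKM in -Dox libraries. MYC fell (log2 change -0.66, SE 0.08, limma adjusted p = 0.00302), and was called whichever library was left out. The ratio of PVT1 to MYC was therefore higher in every +Dox library, at 0.768, 0.869 and 0.972, than in every -Dox library, at 0.528, 0.428 and 0.473 (exact permutation p = 0.1, the smallest possible).

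CYTOR (ENSG00000222041, chromosome 2, 87454781 to 87636740, plus strand), with 38 annotated transcripts, was at 32.2, 35.7 and 43.3 FPKM in +Dox libraries and at 39.6, 39.3 and 37.7 FPKM in -Dox libraries. The +Dox values spanned the whole -Dox range, and the difference was not called (log2 change -0.08, SE 0.11, adjusted p = 0.689). Its 95% interval ran from 0.802-fold to 1.12-fold, and the sign of the change turned without +Dox replicate 1 (0.02). CYTOR has a near copy on the same chromosome, MIR4435-2HG, with 99.2% identity over 2254 bases, so the division of reads between them is uncertain. Another gene on the same strand, AC133644.2, overlaps the CYTOR locus by 181265 bases and was at 2.31 to 3.18 FPKM, so reads may be divided with it too. MIR4435-2HG was at 18.98, 22.2 and 21.1 FPKM in +Dox libraries and at 26.7, 20.9 and 21.6 FPKM in -Dox libraries, and was not called either (adjusted p = 0.453).

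**Figure D3:**
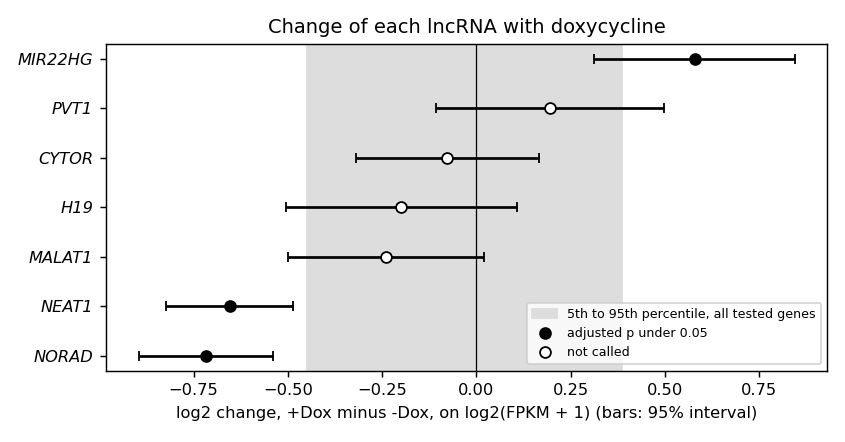
Log2 change of each lncRNA on log2(FPKM + 1), +Dox minus -Dox, with 95% intervals from limma; filled points had an adjusted p under 0.05 and the grey band holds the 5th to 95th percentile of all tested genes (-0.45 to 0.39). NORAD (-0.72) and NEAT1 (-0.65) lie left of the band and MIR22HG (0.58) right of it, and the intervals of the 4 open points cross 0.

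**Figure D4:**
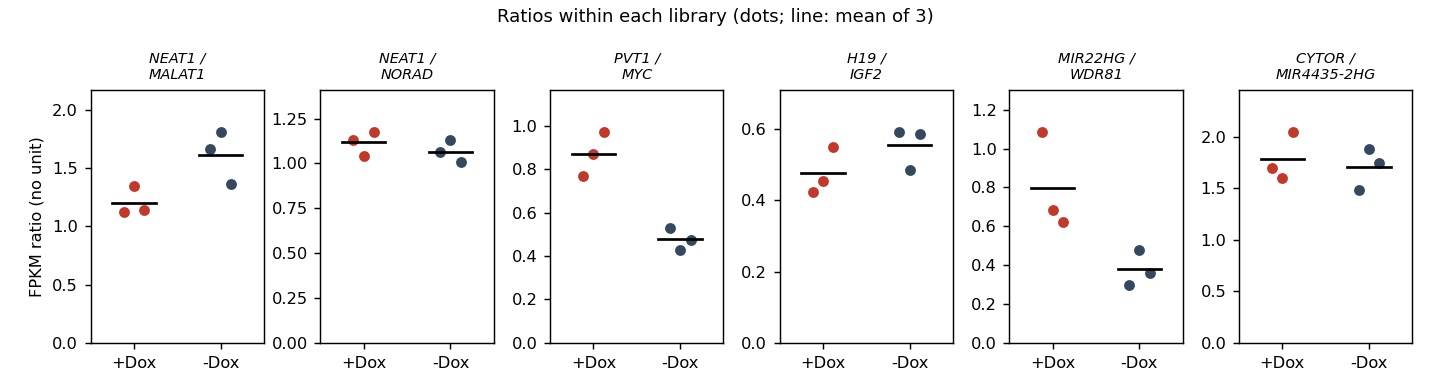
FPKM ratios of 6 gene pairs within each library, on linear axes from 0, with +Dox left of -Dox and a line at the mean of 3. The groups are separate for NEAT1 to MALAT1, PVT1 to MYC and MIR22HG to WDR81, and overlap for NEAT1 to NORAD, H19 to IGF2 and CYTOR to MIR4435-2HG.

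Expressed protein-coding genes near the members were read to see whether a lncRNA moved with its neighborhood. Beside NEAT1, FRMD8 on the lower side was not called (14.1 ± 1.36 and 15.5 ± 4.70 FPKM in +Dox and -Dox libraries, SD, n = 3 each, limma adjusted p = 0.789). Around NORAD, the low-level gene CNBD2 fell (2.04 ± 0.154 FPKM in +Dox and 3.58 ± 0.749 FPKM in -Dox libraries, log2 -0.58, adjusted p = 0.033), a call kept in 1 of 6 leave-one-out fits. EPB41L1, a membrane skeleton gene on the other side of NORAD, was at 16.1 ± 1.51 FPKM in +Dox and 21.5 ± 4.68 FPKM in -Dox libraries (log2 -0.38, adjusted p = 0.137), and without -Dox replicate 3 it was called (log2 -0.57, adjusted p = 0.0288). Near MIR22HG, PRPF8, the core spliceosome protein gene 26.6 kb away, was at 44.7, 47.7 and 42.4 FPKM in +Dox libraries and at 85.8, 79.2 and 74.8 FPKM in -Dox libraries. PRPF8 fell (log2 -0.82, SE 0.08, adjusted p = 0.00228, kept in 6 of 6 such fits) while MIR22HG rose. Beside H19, the mitochondrial ribosomal gene MRPL23 rose (35.9 ± 1.27 FPKM in +Dox and 28.3 ± 1.92 FPKM in -Dox libraries, log2 0.33, adjusted p = 0.0389), and this call held in 0 of the 6 such fits. On either side of CYTOR, RMND5A (log2 -0.37, adjusted p = 0.036) and KRCC1 (log2 -0.49, adjusted p = 0.0251) fell, with calls that held in 0 and 1 of those fits. CYRIB, 1652 kb beyond PVT1, was not called (80.6 ± 6.42 and 69.9 ± 2.62 FPKM in +Dox and -Dox libraries, adjusted p = 0.152).

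Genes for paraspeckle proteins, the partners of NEAT1, were higher in part. Of 25 tested, 6 rose and none fell (limma), which is 24% called beside 8.46% of all tested genes. Without adjustment, 11 were higher and 1 lower at p under 0.05, and the shares over all tested genes were 13.6% for higher and 14.3% for lower (27.9% in either direction). The list's median log2 change was 0.12, where that of all tested genes was -0.0026. HNRNPH3, a ribonucleoprotein of paraspeckles, was at 163, 157 and 168 FPKM in +Dox libraries and at 118, 122 and 127 FPKM in -Dox libraries (log2 0.41, adjusted p = 0.0149). RBM14, which is needed for paraspeckles to form, was at 23.5, 25.0 and 24.8 FPKM in +Dox libraries and at 16.2, 18.6 and 17.4 FPKM in -Dox libraries (log2 0.47, adjusted p = 0.0156). The genes that rose also included PSPC1 (log2 0.36), HNRNPR (0.29) and RBM12 (0.42). The core proteins SFPQ (164 ± 4.73 and 143 ± 8.90 FPKM in +Dox and -Dox libraries, adjusted p = 0.14) and NONO (221 ± 4.52 and 241 ± 13.3 FPKM, adjusted p = 0.343) were not called. The count was 3, 1 and 5 without +Dox replicates 1, 2 and 3 and 2, 0 and 3 without -Dox replicates 1, 2 and 3. It was 0 without the filter on low values and 2 with empirical Bayes without trend or robust.

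Among 18 tested genes of nuclear speckles and SR proteins, the environment of MALAT1, 2 rose and none fell (limma), which at 11.1% called is near the 8.46% of all tested genes. Without adjustment, 7 were higher and 2 lower at p under 0.05, beside 27.9% of all tested genes. The list median was 0.13. SRSF5 was at 142 ± 4.06 FPKM in +Dox and 113 ± 9.56 FPKM in -Dox libraries and SRSF1 at 123.1 ± 7.24 and 99.6 ± 3.96 FPKM (SD, n = 3 each; adjusted p = 0.0419 and 0.0454). SRSF3 missed the threshold (log2 0.30, adjusted p = 0.0513). Leaving out +Dox replicate 3 gave 3 calls in this list, and leaving out any other library gave 0. Of 12 tested genes for RNase P subunits and 3′ end processing, which make the ends of MALAT1 and long NEAT1, RPP40 rose (15.1 ± 1.78 FPKM in +Dox and 10.1 ± 1.09 FPKM in -Dox libraries, log2 0.53, adjusted p = 0.0251) and none fell. That is 8.33% called, the level of all tested genes (8.46%). Without adjustment, 3 were higher and 1 lower at p under 0.05, a share near the 27.9% of all tested genes, and the RPP40 call was kept in 2 of 6 leave-one-out fits.

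Proteins that bind NORAD were read through a list of 8 genes, all tested. ALYREF, an mRNA export adaptor found in a NORAD complex, rose, at 172, 191 and 196 FPKM in +Dox libraries and 109, 115 and 112 FPKM in -Dox libraries. Its log2 change was 0.73 (SE 0.08, limma adjusted p = 0.00228), and it was called whichever library was left out. None of the other 7 was called, so 12.5% of the list was called beside 8.46% of all tested genes. Without adjustment the list had 3 higher genes and 0 lower ones at p under 0.05, beside 27.9% of all tested genes in either direction, and its median log2 change was 0.13. RBMX, an RNA-binding protein of the same complex, was at 136 ± 11.1 FPKM in +Dox and 112 ± 4.37 FPKM in -Dox libraries (adjusted p = 0.0625). Of 9 tested genes around H19 and IGF2, the imprinted transcription factor gene PLAGL1 (12.2 ± 0.802 FPKM in +Dox and 16.7 ± 0.0572 FPKM in -Dox libraries, log2 -0.43, adjusted p = 0.0206) and the RNA-binding protein gene IGF2BP3 (60.4 ± 4.56 and 77.1 ± 4.72 FPKM, log2 -0.35, adjusted p = 0.0398) fell and none rose, 22.2% called beside 8.46% of all tested genes. Without adjustment, 3 were lower and 0 higher at p under 0.05 (list median -0.16), a share near the 27.9% of all tested genes. The PLAGL1 call was kept in 3 and the IGF2BP3 call in 0 of 6 leave-one-out fits.

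**Figure D5:**
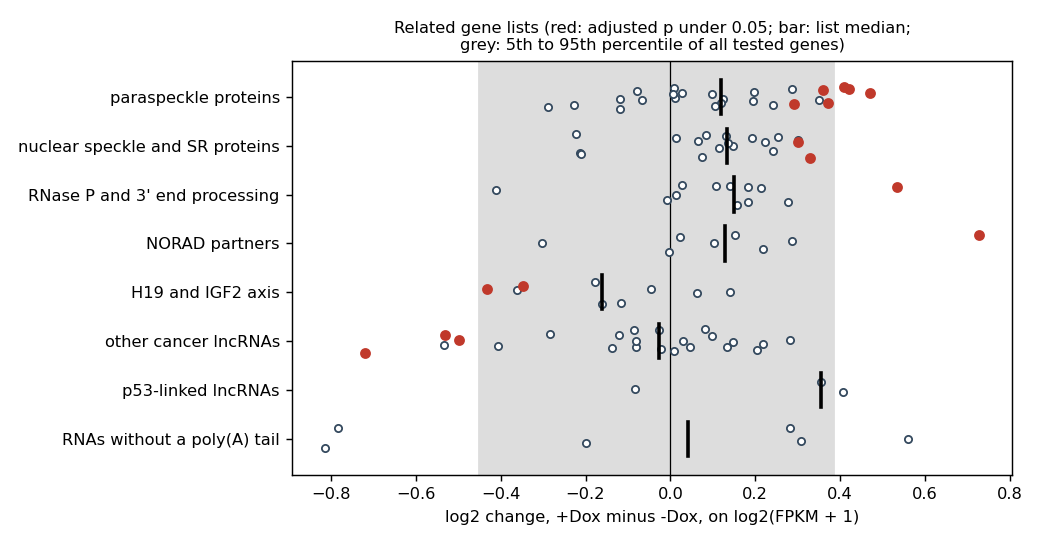
Log2 changes on log2(FPKM + 1), +Dox minus -Dox, of the tested genes in 8 related lists; red points had an adjusted p under 0.05, bars mark list medians and the grey band holds the 5th to 95th percentile of all tested genes. All called genes of the paraspeckle, speckle, RNase P and NORAD partner lists lie right of 0, and all called genes of the H19 and other lncRNA lists lie left of it.

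Most other cancer-associated lncRNAs were not called. Of 23 tested, 3 fell and none rose (limma), beside 4.5% of all 1110 tested lncRNA genes called lower. Without adjustment, 6 were lower and 0 higher at p under 0.05, a share near the 26.9% of all tested lncRNA genes (16.04% lower and 10.8% higher), and the median log2 change was -0.03. DANCR, which is linked to stemness in several tumors, was at 25.4, 23.8 and 29.1 FPKM in +Dox libraries and at 41.8, 44.4 and 44.2 FPKM in -Dox libraries (log2 -0.72, adjusted p = 0.00407). UCA1, first described in bladder carcinoma, was at 22.5, 23.6 and 24.5 FPKM in +Dox libraries and at 32.4, 37.4 and 33.8 FPKM in -Dox libraries (log2 -0.53, adjusted p = 0.00988). LUCAT1, a stress-inducible lncRNA, was at 16.04, 15.4 and 13.5 FPKM in +Dox libraries and at 20.8, 22.7 and 21.2 FPKM in -Dox libraries (log2 -0.50, adjusted p = 0.0166). None of these groups overlapped. DANCR was called whichever library was left out, and UCA1 and LUCAT1 lost their calls without -Dox replicate 2 (adjusted p = 0.0605 and 0.0866) and without the filter on low values (0.0561 and 0.072). TUG1, at 43.1 FPKM in +Dox and 42.8 FPKM in -Dox libraries, was not called (log2 0.0086, 95% interval -0.21 to 0.23, adjusted p = 0.968). Of 3 tested p53-linked lncRNAs 0 were called by limma, and without adjustment 2 were higher at p under 0.05, where 27.9% of all tested genes passed in either direction. MIR34AHG, the host transcript of the p53-induced microRNA miR-34a, was at 3.997 ± 0.163 FPKM in +Dox and 2.90 ± 0.19 FPKM in -Dox libraries (SD, n = 3 each, adjusted p = 0.0618).

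Transcript length and RNA type were compared beside these changes. Of 3987 tested genes whose longest annotated transcript had 4000 to 7000 bases, as NORAD has, 6.04% were called lower and 3.04% higher (median log2 change -0.03), and of 1539 genes with at least 7000 bases, as NEAT1 and MALAT1 have, 4.22% and 1.62% (median -0.07). Genes with under 2000 bases had a median of 0.04. The part of length in the changes of NEAT1 and NORAD was not tested. Some RNAs without a poly(A) tail varied widely between libraries. RN7SK varied less, at 17.05 ± 3.19 FPKM in +Dox and 13.7 ± 0.614 FPKM in -Dox libraries (SD, n = 3 each). RN7SL1 was at 51.4, 35.2 and 58.8 FPKM in +Dox libraries and at 146, 109 and 37.1 FPKM in -Dox libraries. Of 6 tested RNAs of this kind 0 were called by limma, and without adjustment 2 were higher at p under 0.05, a share near the 27.9% of all tested genes. Without -Dox replicate 3, which has the lowest RN7SL1 value of its group, RN7SL1 (log2 -1.39) and SNORD3A (0.74) were called. The part of library preparation in the values of MALAT1 and NEAT1 was not tested.

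Genes whose levels followed a member most closely over the 6 libraries were sought by Pearson correlation of log2(FPKM + 1), as a description. For NEAT1 these were ATXN7L3B (r = 0.999) and SCG2 (0.998), and for NORAD EIF4EBP2 (0.998) and WNT16 (0.998). The libraries fall into the 2 groups for such genes, and 355 and 360 tested genes had r above 0.95 with NEAT1 and NORAD. ATXN7L3B was at 10.97 FPKM in +Dox and 16.6 FPKM in -Dox libraries and WNT16 at 27.3 and 42.9 FPKM, both called lower by limma (adjusted p = 0.00718 and 0.00513). SCG2 was not called (limma adjusted p = 0.0625). For MIR22HG the closest genes were EFHD1 (0.993) and TSC22D2 (0.992), for MALAT1 CCNYL2 (0.982) and MMRN2 (0.982), for PVT1 ZNF593 (0.996) and CCDC124 (0.99), for CYTOR GINS2 (0.99) and ZNRD1 (0.989), and for H19 F8A1 (0.994) and ARHGEF40 (0.992). All share the same 6 libraries and their depth.

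The promoters of the members that moved in opposite directions, NORAD and MIR22HG, are shown so that their letters can be compared. They run from 250 bases before to 50 bases after the RefSeq start (GRCh38.p14, minus strand for both). RefSeq promoters were found for 5 of the 8 lncRNAs and searched on both strands for CACGTG (E-box), ACGTG (core of the hypoxia response element, contained in CACGTG), TGACGTCA (cyclic AMP response element), CCAAT (NF-Y box), TGANTCA (AP-1) and TGATGNAA (C/EBP-ATF type), and capitals mark every match.
NORAD, chr20:36050911-36051210: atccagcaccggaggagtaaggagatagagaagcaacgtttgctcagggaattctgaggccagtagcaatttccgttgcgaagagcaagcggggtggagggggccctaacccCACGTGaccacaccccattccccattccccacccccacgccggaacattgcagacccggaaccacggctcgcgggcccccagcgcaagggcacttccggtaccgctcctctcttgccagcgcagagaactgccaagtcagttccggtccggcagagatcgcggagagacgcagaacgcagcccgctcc
MIR22HG, chr17:1716161-1716460: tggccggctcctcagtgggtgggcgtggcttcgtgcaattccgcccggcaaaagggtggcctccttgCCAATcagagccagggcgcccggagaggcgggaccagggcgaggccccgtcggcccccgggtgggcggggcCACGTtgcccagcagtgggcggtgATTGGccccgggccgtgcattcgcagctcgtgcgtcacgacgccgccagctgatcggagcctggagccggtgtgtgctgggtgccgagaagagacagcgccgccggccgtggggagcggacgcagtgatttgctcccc
The NORAD promoter held 1 CACGTG, a sequence present in 7.26% of all 35116 promoters of the same length. It was the only searched member promoter with that match. Promoters of NEAT1, PVT1 and CCAT1 were not among those searched. The MIR22HG promoter held 2 CCAAT boxes (present in 34.6% of promoters) and 1 ACGTG (21.4%). The CYTOR promoter held 2 AP-1 matches (7.71%). A match is a description of the letters and not evidence of binding.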

How the data were processed

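The authors' deposited table gives 1 value per gene and library. The deposited values were treated as FPKM because of how they behave (not whole, library sums unequal), since the header names no unit. Bowtie, BWA, STAR, Cufflinks, RSEM and kallisto and the build hg19 are named without roles or versions, per the submitters' processing notes. The loci match GRCh38 with 0-based starts (39290 of the 39300 gene identifiers shared with GENCODE 29), and coordinates are given here 1-based. FPKM divides out length and library size, so a change in 1 abundant class shifts all others. The depth estimate uses the step between low values of single-exon genes over 1000 bases. It is rough, since 23.1% to 26.5% of those low values lay within 0.05 of a whole step, and a floor of 3 fragments on 1000 bases equals 0.159 to 0.224 FPKM (counting error only).

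The filter was 1 FPKM or more in 3 libraries or more. Values on a log2(FPKM + 1) scale entered limma 3.58.1 (R 4.3.3) with trended, robust empirical Bayes and no term besides group. Two-sided p-values were Benjamini-Hochberg adjusted over all 14475 genes, with a threshold of 0.05. A set of 6 alternatives to the scaling, filter, pseudocount and fit, a replicate block and leaving out each library was tried. Simulated data for this comparison, with 14475 genes, had true changes added on the log2(FPKM + 1) scale. The changed genes averaged above 1 on that scale. Changes of 1.25-fold in FPKM + 1 were found in 7.2% of cases, of 1.5-fold in 48.4%, of 2-fold in 85.2% and of 4-fold in 97.2%. False calls made up 5.25% of calls.

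The members and lists were chosen with earlier results of these data known. Named genes were the members, CAPG, up to 3 genes per list with the smallest p, the nearest expressed protein-coding gene on each side and the 2 genes most correlated with each member, a few of which are not reported here; further genes named (TUG1, SFPQ, NONO and further called list genes) were chosen after their values were seen. Sequences came from GENCODE 29 transcripts and RefSeq tables, and alignments from BLAST.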

Additional observations from a re-analysis of the deposited data

How the results depend on the processing

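The falls of NEAT1 and NORAD kept their direction and call under every alternative tried, with log2 changes of -0.71 to -0.65 and -0.77 to -0.72 under the other filters, scalings, pseudocount and fits and of -0.69 to -0.62 and -0.75 to -0.66 when a library was left out. CAPG kept its call throughout (-2.67 to -2.53 when a library was left out). MALAT1, PVT1 and H19 were never called, with leave-one-out ranges of -0.32 to -0.14, 0.06 to 0.30 and -0.27 to -0.07, and CYTOR ranged from -0.19 to 0.02. The reversal of CYTOR was without +Dox replicate 1 (0.0173). MIR22HG lost its call without the filter (0.5785, adjusted p = 0.072) and, without a library, ranged from 0.54 to 0.64. MIR22HG and H19 have no value under the filter of 5 FPKM. Signs also turned for WDR81 without +Dox replicate 1 (0.00968), PURPL without +Dox replicate 3 (0.0351), and FRMD8 (0.12) and IGF2 (0.0533) without -Dox replicate 1. Their leave-one-out ranges were -0.22 to 0.01 for WDR81, -0.19 to 0.04 for PURPL, -0.29 to 0.12 for FRMD8 and -0.14 to 0.05 for IGF2. The cause was not tested.

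The 1225 calls became 153 without the filter and between 223 and 1000 when a library was left out, with fewer samples in each such fit. The 15 called list genes became 2 without the filter (ALYREF and DANCR), 9 with empirical Bayes without trend or robust, and between 2 and 13 when a library was left out. The share of higher genes among calls, 43.6%, was 34% with equal FPKM totals, 46.7% with median ratio scaling, 36.9% with empirical Bayes without trend or robust, 34.6% without the filter, 49.8% with the filter of 5 FPKM and 32.7% with the replicate block. The members' share of summed FPKM differed by -0.0147 percentage points (+Dox minus -Dox), by -0.0165 with mitochondrial genes left out and by -0.0153 to -0.0137 when a library was left out.

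Same-numbered libraries did not deviate together (correlations -0.0433, 0.00936 and -0.0231), which gives no sign of pairing by number but cannot exclude it. With a replicate block 211 genes and 3 list genes were called and MIR22HG was not (0.5785, adjusted p = 0.0729), nor was LUCAT1 (adjusted p = 0.0612) or any paraspeckle gene (0 of 6 calls), while NEAT1 and NORAD kept their calls. With 3 libraries per group and the spread between them, changes under about 1.5-fold in FPKM + 1 were often below what the fit recovers.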
